A study of Homo sapiens with 21 samples.

Results

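FaDu cells, an established line grown from a hypopharyngeal squamous carcinoma, were sequenced after knockdown of IGF2BP3. The samples are named sh3-2 and sh3-1, read as 2 hairpins that target one gene, and circular RNAs (circRNAs) were counted in 3 libraries of each, lettered A to C. A group named shCtr, labelled wild type with a blank treatment, gave 3 more libraries and serves as a common background. What follows is what differed between the hairpins. The members are the 6150 circRNAs, of 8714 in the whole series, that had at least 1 back-splice junction read in the 6 hairpin libraries. They were found by joining the sheets of both comparisons by circRNA identifier, with 0 reads for a circRNA that a comparison does not list. The labels call both groups IGF2BP3 knockdown and give no hairpin sequence, no dose or time, no word on clones or pools and no level of IGF2BP3 after knockdown. The other 12 of the 21 samples are m6A immunoprecipitation libraries of sh3-2 and shCtr, so no sh3-1 sample has m6A data.

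A circRNA forms when a splice donor joins an upstream acceptor, which closes one or more exons of a host gene into a ring without free ends. Reads across that backward junction are counted as the circle, because the ordinary linear transcript does not hold its exons in that order. IGF2BP3 is an RNA-binding protein of fetal and tumour tissue that stabilises target RNAs and reads m6A, a methyl mark on adenosine. Several hairpins against one gene are commonly used side by side, because effects on the target should be shared between them while effects of the hairpin sequence itself need not be.

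The 6 libraries were shallow and unequal. Junction reads numbered 3869, 3775 and 4168 in the sh3-2 libraries, against 5023, 5846 and 5732 in the sh3-1 libraries and 5502 to 5818 in the shCtr libraries. All 3 sh3-2 libraries lay below all others, at 3937 ± 205 reads against 5534 ± 446 with sh3-1 (mean ± SD, n = 3 each), which is 28.8% fewer (exact two-sided permutation p = 0.1). That is the smallest p that 3 against 3 libraries can give, so no value per library can pass 0.05. In bulk RNA, fewer cells with a circle and fewer copies per cell cannot be told apart. Neighbouring libraries also shared circles unevenly. Libraries sh3-1 A and B held 360 circRNAs that no other library held, with 10.9% and 19.3% of their reads, and sh3-2 B and C held 197 of that kind, with 11.8% and 6.72% of their reads. The other pairs within a hairpin shared 16 to 31 such circRNAs, and pairs of a sh3-2 with a sh3-1 library shared 10 to 35. Several results are therefore also given without circRNAs confined to 2 libraries of 1 hairpin, though not every result that this moved.

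Reads of the target gene's own circles did not separate the hairpins. The 5 circles of IGF2BP3 together had 3, 6 and 0 reads with sh3-2, against 5, 1 and 0 with sh3-1 and 6, 2 and 0 in shCtr libraries. Per 1000 junction reads this was 0.788 ± 0.795 with sh3-2 and 0.389 ± 0.532 with sh3-1 (exact permutation p = 0.7, n = 3 each). No single IGF2BP3 circle was seen in more than 1 library of either hairpin. The circle 7:23381683-23391205 (hg19, as are all coordinates here) had 6 reads in sh3-2 B and 1 read in sh3-1 B, and 7:23385559-23391205 had 5 reads in sh3-1 A alone. These junctions count circles, not IGF2BP3 mRNA, and do not measure the knockdown. The HECTD2 circle of the series title (10:93185038-93221941), from the gene of a ubiquitin ligase, had 0 reads in all 6 hairpin libraries, against 3, 2 and 7 reads in shCtr libraries. It thus gave no difference between the hairpins at this depth, where a count of 0 allows up to 0.0795% of reads in a library (3 counts of the total in the smallest of the 6).

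Most circRNAs were seen with 1 hairpin, and most library pairs of the same hairpin also shared few. Pairs of a sh3-2 with a sh3-1 library shared 20.2% to 30.2% of a library's circRNAs, and 4 pairs within a hairpin 21.9% to 28.6%. Libraries sh3-1 A and B shared more, with 885 circRNAs, 51.3% and 52.5% of theirs. Libraries sh3-2 B and C shared 707, or 47.3% and 40.5%. The other pairs within a hairpin shared 356 to 425. Whether leaving out the confined circRNAs removes all of this excess was not tested. With sh3-2, 3484 circRNAs of 2073 host genes were seen, and with sh3-1, 3889 of 2288. The 1223 circRNAs found with both are 35.1% of those found with sh3-2 and 31.4% of those found with sh3-1, and they held 49.1% of sh3-2 reads and 46.6% of sh3-1 reads. Host genes overlapped more than their circles did: 1300 hosts had reads with both hairpins through any circle, which is 62.7% of the sh3-2 hosts and 56.8% of the sh3-1 hosts. Of the 6150 circRNAs, 3895 (63.3%) were seen in 1 of the 6 libraries and 106 in all 6.

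The number of circles seen at equal depth overlapped between the hairpins. In draws of 3775 reads, the size of the smallest library, the sh3-2 libraries were expected to show 1475, 1495 and 1684 circRNAs, against 1547, 1515 and 1703 with sh3-1 (mean difference −37.2, exact permutation p = 0.5, n = 3 each). At full depth the means were 1575 ± 148 with sh3-2 and 1779 ± 130 with sh3-1. Without the circRNAs confined to 2 libraries of 1 hairpin the sign of the difference at equal depth turned (28.2).

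Unlike the number of circles seen at equal depth, the shares of some junction classes did not overlap between the hairpins. Junction reads per library, given above, did not overlap either. The sheets give each circle a class without defining it. In common use an exonic circle joins annotated exons, an intronic one lies within an intron, and a sense overlapping one lies on a gene's strand but is neither. Sense overlapping circles took 14.7%, 13.5% and 12.9% of reads in sh3-2 libraries, against 11.2%, 10.5% and 11.1% in sh3-1 libraries and 13.1%, 12.7% and 13.2% in shCtr libraries. All sh3-2 libraries thus lay above all sh3-1 libraries, and all sh3-1 libraries lay below all shCtr libraries. The means were 13.7 ± 0.916% with sh3-2 and 10.9 ± 0.365% with sh3-1 (n = 3 each, exact permutation p = 0.1, adjusted p = 0.312 over 25 library measures). The order held when circRNAs were counted instead of reads (15.1 ± 1.03% of detected circRNAs with sh3-2, against 12.9 ± 0.394% with sh3-1). It also held for circRNAs listed in both comparisons (8.42% of reads with sh3-2, against 6.78% with sh3-1) and without the circRNAs confined to 2 libraries of 1 hairpin (13.1% with sh3-2, against 10.2% with sh3-1).

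The exonic share moved the other way, to 75.8%, 77.8% and 78.2% in sh3-2 libraries, against 78.4%, 80.5% and 81.9% in sh3-1 libraries (difference of means −3.07 percentage points, exact permutation p = 0.1). The groups do not overlap by reads, but they do over detected circRNAs (75.0 ± 1.28% with sh3-2 and 77.1 ± 1.67% with sh3-1) and over circRNAs listed in both comparisons (87.4% of reads with sh3-2, 89.1% with sh3-1). The intronic share did not separate them, at 8.80 ± 0.572% with sh3-2 and 8.39 ± 1.33% with sh3-1 (n = 3 each, exact permutation p = 0.8), nor did the share of reads on circles with a circBase identifier, at 70.4 ± 1.62% and 72.6 ± 0.994% (exact permutation p = 0.2, n = 3 each). Exonic circles were also predicted to be longer with sh3-2, a measure taken up after the data were seen. Weighted by reads, their mean predicted length was 868, 887 and 859 bases with sh3-2, against 851, 817 and 824 bases with sh3-1 and 825 to 871 bases in shCtr libraries (exact permutation p = 0.1 between the hairpins, n = 3 each). Without the circRNAs confined to 2 libraries of 1 hairpin the lengths overlapped (868 bases with sh3-2, 841 with sh3-1, exact permutation p = 0.2). Between the hairpins depth moves with all 3 of these differences, since every sh3-2 library had fewer reads than every sh3-1 library. The shCtr libraries had 5502 to 5818 reads and a sense overlapping share of 12.7% to 13.2%. The part of depth in these differences was not tested. In all, 8 of the 25 measures did not overlap between the hairpins.

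**Figure D1:**
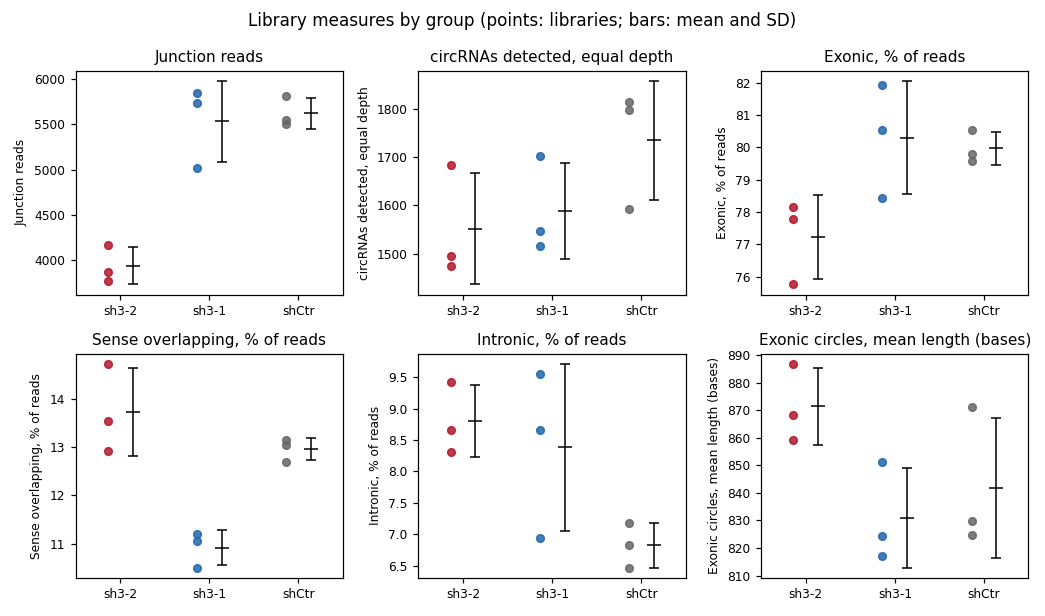
Library measures by group, 1 point per library, with mean and SD beside the points (n = 3 each); axes give reads, circRNAs, percent of junction reads or bases and do not start at 0. The sh3-2 libraries sit below the sh3-1 libraries in junction reads and exonic share, and above them in sense overlapping share and in the mean length of exonic circles (lowest sh3-2 library 859 bases, highest sh3-1 library 851).

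Among the sense overlapping circles, no single one carried the difference. The class held 994 circRNAs of 807 hosts in the 6 libraries, and 107 of these circRNAs were seen with both hairpins. The circle with the most reads came from NIPBL, the gene of the cohesin loader (5:36982267-36986403), with 16, 3 and 5 reads with sh3-2, against 0, 9 and 5 with sh3-1. A circle of the zinc finger gene ZNF124 (1:247318868-247323115) had 0, 1 and 2 reads with sh3-2, against 5, 19 and 7 with sh3-1. One of ELK4 (1:205585606-205597002) had 2, 0 and 6 reads with sh3-2, against 8, 5 and 8 with sh3-1. A further ZNF124 circle (1:247319708-247323115) had 4, 2 and 7 with sh3-2, against 10, 5 and 1 with sh3-1. Per 1000 reads the means were 0.652 and 1.28 for ELK4, and 1.08 and 1.01 for this ZNF124 circle. These leading members lean in different directions, and most NIPBL reads of sh3-2 came from library A.

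Junctions on the mitochondrial genome, 36 circRNAs in the 6 libraries, took 0.930%, 1.17% and 1.20% of reads with sh3-2, against 0.557%, 0.240% and 1.03% with sh3-1 and 0.120% to 0.306% in shCtr libraries. The means were 1.10 ± 0.147% with sh3-2 and 0.609 ± 0.397% with sh3-1 (exact permutation p = 0.2, n = 3 each), and the hairpins overlap through sh3-2 A and sh3-1 C. Library sh3-1 C gave 59 such reads, against 28 and 14 in sh3-1 A and B. Human mitochondrial genes have no introns, so these junctions are given as listed in the sheets and not as products of splicing.

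Circle by circle, the largest differences by p were in circles of SPECC1, KIAA0368, MGA and ESYT2, and none passed. KIAA0368 is a proteasome adaptor and MGA a partner of the MAX transcription factor. ESYT2 is a lipid transfer protein at contacts of the endoplasmic reticulum with the cell membrane. Of the 40 circRNAs with enough reads to be tested over all 9 libraries, which hold 12.4% of the reads of the 6, 23 were higher and 17 lower with sh3-2 (median log2 0.07). EdgeR's quasi-likelihood test with Benjamini-Hochberg adjustment called 0 of 40 (0.0%), with a smallest adjusted p of 0.397, and DESeq2 also called 0. Before adjustment, 2 higher and 2 lower circRNAs had an edgeR p under 0.05, against 0 and 2 in DESeq2. These fold changes are relative to the tested circRNAs. With DESeq2's size factors in edgeR the median moved by −0.14 and the split became 18 higher and 22 lower, so the balance of directions rests on the scaling.

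The SPECC1 circle (17:20107646-20109225, hsa_circ_0000745) was the most abundant circRNA of both hairpins. It had 101, 70 and 85 reads with sh3-2, against 81, 90 and 109 with sh3-1, which per 1000 reads is 21.7 ± 3.94 and 16.8 ± 1.91 (n = 3 each). The hairpins overlap. All sh3-2 libraries lay above all shCtr libraries, but barely, with 18.5 reads per 1000 in sh3-2 B and 18.4 in shCtr A. The shCtr libraries had 101, 85 and 91 reads of this circle. In the authors' deposited table its log2 fold change for sh3-2 against shCtr was 0.09. Without the circRNAs confined to 2 libraries of 1 hairpin the SPECC1 circle did not overlap, with 23.4 ± 2.99 reads per 1000 with sh3-2 and 19.0 ± 0.587 with sh3-1. Its log2 fold change was 0.38 (SE 0.15, edgeR adjusted p 0.397). In a fit of the 6 hairpin libraries alone, where 25 circRNAs had enough reads, it was the 1 circRNA called (log2 0.52, edgeR adjusted p 0.0103). Without sh3-2 A, which holds the highest share, the log2 fold change of SPECC1 was 0.12 (adjusted p 0.909).

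The KIAA0368 circle (9:114148657-114154104, hsa_circ_0001882) had 9, 4 and 2 reads with sh3-2, against 19, 19 and 13 with sh3-1 and 15, 21 and 4 in shCtr libraries. Every sh3-2 count lay below every sh3-1 count, but per 1000 reads library sh3-2 A and library sh3-1 C overlap. The log2 fold change was −1.26 (SE 0.57, edgeR adjusted p 0.406). Without sh3-2 A it was −2.09 and was called (adjusted p 0.038). Over all alternatives its adjusted p ranged between 0.038 and 0.742, and its sign was the same in each.

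In 4 of the 40 tested circRNAs the hairpins did not overlap per 1000 reads, 3 with sh3-2 above (7.5% of those tested) and 1 with sh3-2 below (2.5%). Without the circRNAs confined to 2 libraries of 1 hairpin, the circles of SPECC1 and ATP5C1 joined those above, and that of MYH9 left them. The circle of ATP5C1 and the MGA circle named next would not have been tested without their sh3-2 reads. That of ESYT2 would not have been tested without its sh3-1 reads. For these a high value in that hairpin was a condition of entering the 40. The MGA circle 15:41988273-41991357 (hsa_circ_0000592) had 11, 7 and 7 reads with sh3-2, against 3, 4 and 5 with sh3-1 (log2 1.55, SE 0.75, edgeR adjusted p 0.406). A second MGA circle, 15:41961026-41962156 (hsa_circ_0000591), had 9, 8 and 9 reads with sh3-2, against 28, 9 and 13 with sh3-1 (log2 −0.50, SE 0.61). The circles of this one host thus had fold changes of opposite sign, though that of the second turned positive without sh3-1 A.

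The circle of MYH9, the heavy chain of nonmuscle myosin (22:36716843-36723533), had 32, 26 and 21 reads with sh3-2, against 21, 26 and 17 with sh3-1 and 16, 22 and 4 in shCtr libraries. Per 1000 reads all sh3-2 libraries lay above all libraries of both other groups (log2 over sh3-1 0.80, SE 0.47, edgeR adjusted p 0.563). Without the circRNAs confined to 2 libraries of 1 hairpin the hairpins overlapped for MYH9 (7.29 ± 1.59 reads per 1000 with sh3-2, 4.45 ± 1.32 with sh3-1). The circle of the kinase gene HIPK3 (11:33307959-33309057, hsa_circ_0000284) also lay above sh3-1 in each library, with 29, 21 and 25 reads with sh3-2, against 17, 21 and 29 with sh3-1 (log2 0.69, SE 0.46). The one circle with every sh3-2 library below every sh3-1 library was that of ESYT2 (7:158552177-158557544, hsa_circ_0001776). It had 4, 5 and 5 reads with sh3-2, against 16, 22 and 14 with sh3-1 and 15, 10 and 4 in shCtr libraries (log2 −1.37, SE 0.67, edgeR adjusted p 0.406).

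The other circles named by the smallest p overlap between the hairpins per 1000 reads. On the higher side they came from the protein kinase PRKD3 (log2 1.09), the segregase cofactor UBXN7 (1.07), the nuclear export receptor XPO1 (0.67), the long noncoding RNA LINC01004 (0.65), the transcription factor NFATC3 (0.53), the mannosidase MAN1A2 (0.39), the zinc finger gene ZKSCAN1 (0.37) and RBM33 (0.33), with SEs between 0.52 and 0.71. The signs of LINC01004, NFATC3, MAN1A2, ZKSCAN1 and RBM33 turned in some fits that left out 1 library. On the lower side they came from SETD3, an actin histidine methyltransferase (log2 −1.19), N4BP2L2 (−0.98), SEMA3C, a secreted guidance protein (−0.73), ZBTB44 (−0.73), ARHGAP5 (−0.71), the microtubule protein CAMSAP1 (−0.57), QSER1 (−0.53), FAM13B (−0.44) and PLOD2, a collagen lysyl hydroxylase (−0.31), with SEs between 0.29 and 0.76. The circles of UBXN7 and MAN1A2 would not have been tested without their sh3-2 reads. Those of SETD3, N4BP2L2, SEMA3C and CAMSAP1 would not have been tested without their sh3-1 reads. PLOD2 and GUSBP1 gave, after SPECC1, the circles with the most reads over the 6 libraries. PLOD2 (3:145838899-145842016) had 30, 32 and 31 reads with sh3-2, against 55, 60 and 48 with sh3-1, and the pseudogene GUSBP1 (5:21491430-21497305) had 23, 25 and 29 with sh3-2, against 24, 55 and 17 with sh3-1.

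**Figure D2:**
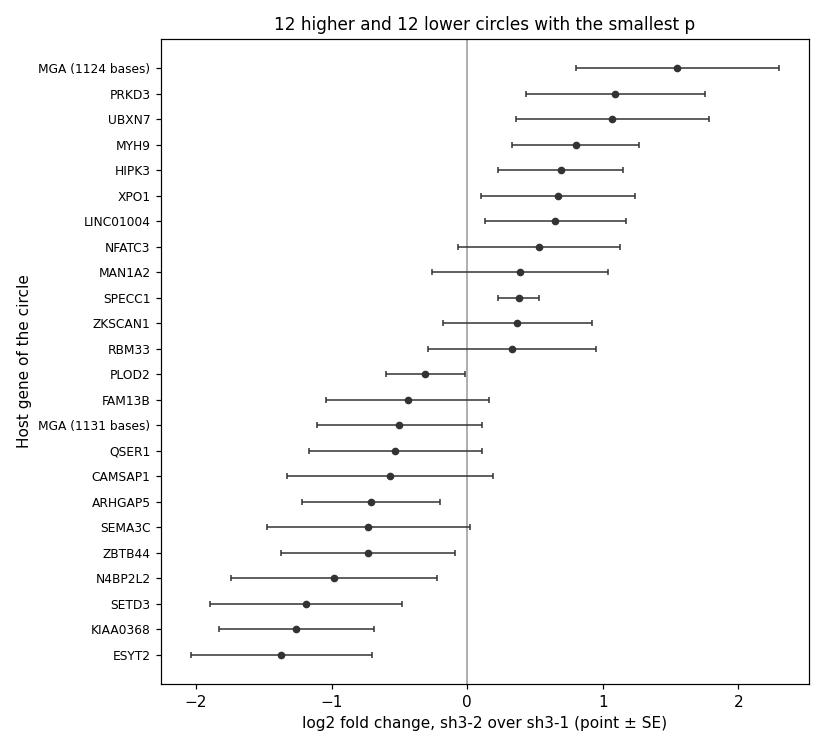
Log2 fold change of sh3-2 over sh3-1 with its SE for the 12 higher and 12 lower circles of smallest p, by host gene (the circles of MGA are told apart by predicted length). Only the points of SPECC1, MGA (1124 bases), KIAA0368 and ESYT2 lie more than 2 SE from 0, and none passed an adjusted p of 0.05.

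Summed over all circles of a host gene, 102 hosts could be tested, which hold 27.1% of the reads of the 6 libraries. They split evenly, 51 higher and 51 lower with sh3-2 (median log2 −0.01). EdgeR called 0 of 102 (0.0%), with a smallest adjusted p of 0.498, and DESeq2 called 0. Before adjustment, 4 higher and 3 lower hosts had an edgeR p under 0.05, against 7 and 2 in DESeq2. In 6 hosts (5.88%) all sh3-2 libraries lay above all sh3-1 libraries per 1000 reads, and in 8 (7.84%) all lay below. In a fit of the 6 hairpin libraries alone, 1 of 56 hosts was called, SPECC1 (log2 0.56, edgeR adjusted p 0.0383).

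ASH1L, which encodes a histone methyltransferase of active genes, was the host with the smallest p. Its circles had 8, 9 and 8 reads with sh3-2, against 2, 4 and 1 with sh3-1 and 4, 4 and 8 in shCtr libraries. Per 1000 reads this is 2.12 ± 0.237 with sh3-2, 0.419 ± 0.256 with sh3-1 and 0.941 ± 0.376 in shCtr libraries (n = 3 each), and ASH1L was the only one of the 102 hosts for which every sh3-2 library lay above, and every sh3-1 library below, every shCtr library. Only the sh3-2 libraries held enough ASH1L reads for it to be tested, so a high sh3-2 value was a condition of its entering the 102. The log2 fold change was 2.23 (SE 0.82, unadjusted p 0.0112, edgeR adjusted p 0.498) and lay between 1.84 and 2.85 over the alternatives in which it was tested. The reads came from 7 circles with sh3-2 and from 2 of these with sh3-1. The circle 1:155385535-155429689 (hsa_circ_0014586) had 2, 3 and 2 reads with sh3-2 and 0 in all other libraries, 1:155385535-155452240 had 6 reads in sh3-2 B alone, and 1:155408118-155429689 had 2, 0 and 2 reads with sh3-2, against 2, 2 and 0 with sh3-1. The circle 1:155490891-155491409 had 0, 0 and 1 reads with sh3-2, against 0, 2 and 1 with sh3-1, so the circles of ASH1L did not all lean one way. None of them had enough reads to be tested alone. No ASH1L read came from circRNAs confined to 2 libraries of 1 hairpin, but per 1000 of the remaining reads of each library the sh3-1 libraries overlapped with shCtr (0.496 ± 0.344 against 0.941 ± 0.376, n = 3 each), while the sh3-2 libraries lay above both.

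Other hosts on the higher side were more uneven. NUSAP1, a spindle and nucleolar protein, had 15, 2 and 15 reads with sh3-2, against 2, 0 and 7 with sh3-1 (log2 2.21, SE 0.91), and its circle 15:41657600-41669502 had 7, 0 and 5 reads with sh3-2 and 0 elsewhere, so that it is confined to 2 libraries. Without such circRNAs NUSAP1 had 8, 2 and 10 reads with sh3-2, against 2, 0 and 7 with sh3-1. PHLDB2, a cortical anchor of microtubules, had 9, 7 and 7 reads with sh3-2, against 4, 2 and 5 with sh3-1 and 6, 16 and 17 in shCtr libraries (log2 1.48, SE 0.72). For PHLDB2 the sh3-1 libraries lay below all shCtr libraries per 1000 reads, while the sh3-2 libraries overlapped with shCtr. PRKD3 (log2 1.07, SE 0.51) and DHTKD1, a mitochondrial dehydrogenase of lysine breakdown (log2 0.93, SE 0.47), had overlapping groups. Like ASH1L, NUSAP1 and PHLDB2 would not have been tested without their sh3-2 reads.

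On the lower side ERBB2IP led, the gene of erbin, a scaffold protein of cell junctions and receptor signalling. It had 4, 5 and 2 reads with sh3-2, against 13, 16 and 14 with sh3-1 and 16, 17 and 17 in shCtr libraries (log2 over sh3-1 −1.47, SE 0.59, edgeR adjusted p 0.498). Per 1000 reads this is 0.946 ± 0.429 with sh3-2, 2.59 ± 0.147 with sh3-1 and 2.96 ± 0.0851 in shCtr libraries (n = 3 each), and all 3 groups were separated. The sh3-1 reads include 2, 10 and 0 of the intronic circle 5:65346622-65346794, which is confined to libraries A and B of sh3-1. Without such confined circRNAs sh3-2 kept its reads, sh3-1 had 11, 6 and 14, the hairpins overlapped, and the log2 fold change was −1.01 (unadjusted p 0.117). The sh3-2 libraries still lay below all shCtr libraries. The exonic circle 5:65284463-65290692 had 0, 1 and 0 reads with sh3-2, against 2, 4 and 8 with sh3-1 and 10, 13 and 7 in shCtr libraries.

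ESYT2 had 4, 9 and 13 reads with sh3-2, against 20, 33 and 27 with sh3-1 (log2 −1.16, SE 0.47) and most of these reads came from the circle named above. HIBADH, an enzyme of valine breakdown, had 5, 8 and 5 reads with sh3-2, against 17, 24 and 15 with sh3-1 and 8, 14 and 11 in shCtr libraries (log2 −1.16, SE 0.54). For HIBADH the sh3-1 libraries lay above the libraries of both other groups per 1000 reads, unlike for ERBB2IP. AGTPBP1, an enzyme that trims glutamates from tubulin, had 4, 3 and 2 reads with sh3-2, against 12, 9 and 12 with sh3-1 (log2 −1.39, SE 0.80). The groups overlapped for the phosphodiesterase PDE3A (log2 −1.05), the mismatch repair relative PMS1 (−1.94), SETD3 (−1.27) and KIAA0368 (−1.12), and the edgeR adjusted p was 0.498 for each of these hosts. AGTPBP1, PMS1 and SETD3 would not have been tested without their sh3-1 reads.

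**Figure D3:**
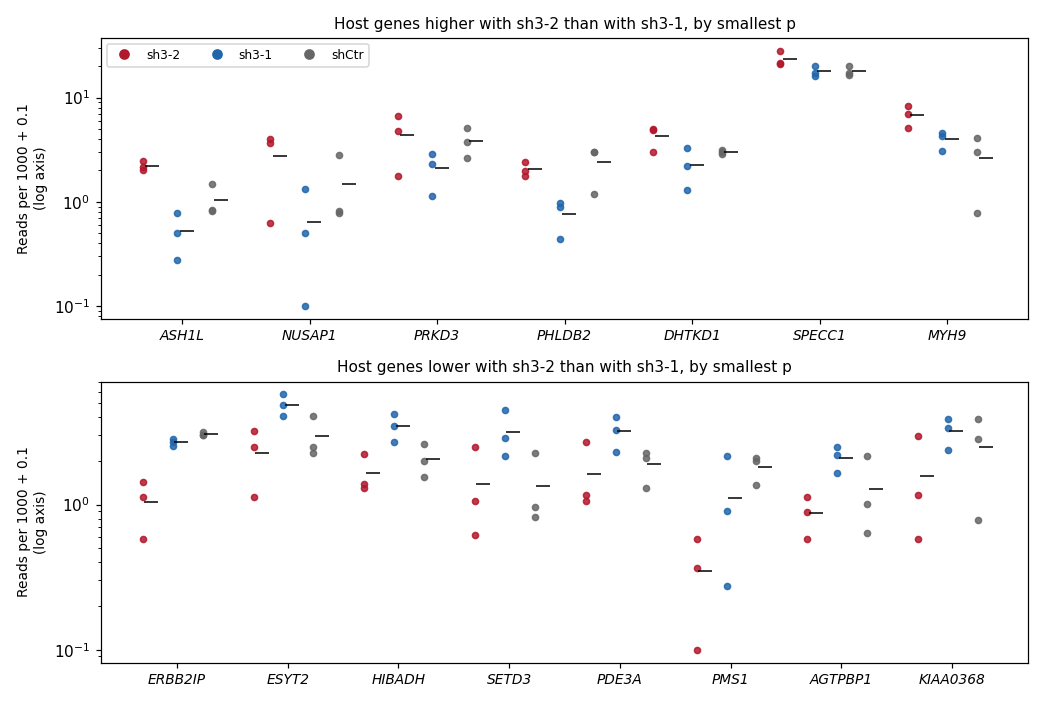
Junction reads per 1000, plus 0.1 on a log axis, of host genes higher and lower with sh3-2, from those of smallest p, with 1 point per library and a bar at each group's mean (n = 3). The ASH1L points of sh3-2 lie above and those of sh3-1 below the shCtr points, and the ERBB2IP points of sh3-2 lie below both other groups.

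Circles present with one hairpin and missing with the other are too rare for those fits and are given as counts with no test. Of the 6150 circRNAs, 35 (0.569%) had reads in all 3 sh3-2 libraries and in no sh3-1 library, and 54 (0.878%) had the reverse pattern. Both are small beside the 106 circRNAs found in all 6 libraries. Between a hairpin and shCtr the same rule gave 35 and 43 circRNAs for sh3-2 (present in sh3-2 and missing in shCtr, then the reverse) and 43 and 41 for sh3-1. The totals were small, with a median of 6 reads over the 3 sh3-2 libraries (3 to 10) and of 7 over the 3 sh3-1 libraries (4 to 19), and the deeper libraries are those of sh3-1. Of the 35, 18 had reads in shCtr libraries, and of the 54, 27 did. When 2 reads were asked for in each library, 5 and 14 circRNAs were left.

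The 8 sh3-2 circles with the most reads (ties taken in order of identifier) began with FANCM, the DNA translocase of the Fanconi pathway. Its circle 14:45644274-45646179 had 2, 5 and 3 reads with sh3-2, 0 with sh3-1 and 1, 0 and 3 in shCtr libraries. Per junction read this is 4.68 times a floor of 3 reads over the sh3-1 group. The sh3-2 reads are taken as exact there, so the value is not a lower bound. The circle of FBXL5, an iron-sensing subunit of a ubiquitin ligase (4:15626875-15646331), had 2, 1 and 5 reads with sh3-2 and 0 in all 6 other libraries (3.75 times that floor). The clathrin adaptor PICALM (11:85707869-85742653; 2, 2 and 3 reads), the sorting nexin SNX6 (14:35044962-35078948; 1, 2 and 4 reads) and the ASH1L circle above had 7 reads each, as did circles of DCAF6, SLC25A17 and PRKAR1B. The list also holds a mitochondrial junction (1680-7116 of the mitochondrial genome, with 4, 2 and 3 reads with sh3-2 and 0 elsewhere) and circles of DHTKD1 and DCUN1D4.

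With sh3-1 the counts reached higher. The circle of VAPA, which tethers the endoplasmic reticulum to other membranes (18:9931807-9937063, hsa_circ_0006990), had 0 reads with sh3-2, 6, 7 and 6 with sh3-1 and 2, 4 and 2 in shCtr libraries, so that sh3-2 was the only group without it (with sh3-1 4.51 times a floor of 3 reads over the sh3-2 group). The same held for YWHAE, an adaptor that binds phosphorylated proteins (17:1264386-1265302), with 9, 5 and 2 reads with sh3-1 and 2, 1 and 1 in shCtr libraries. It also held for CPSF6, a factor of mRNA 3′ end processing (12:69644909-69656342), with 6, 2 and 4 reads with sh3-1 and 3, 3 and 6 in shCtr libraries. In the authors' deposited table the CPSF6 circle had a p of 0.011 and an FDR of 0.558 for sh3-2 against shCtr. With the same FDR, the VAPA circle had a p of 0.0218 and the YWHAE circle one of 0.0855. These circles were picked for their 0 reads with sh3-2, so the p-values rest on the values that chose them and add no support.

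Among the other sh3-1 circles some were also missing in shCtr libraries. The zinc finger gene ZNF131 (5:43122141-43139411) had 3, 7 and 4 reads and the SUMO ligase PIAS2 (18:44470543-44483598) 3, 4 and 6 reads with sh3-1, and both had 0 in all 6 other libraries. FOXK2, a forkhead transcription factor (17:80521230-80526077), had 10, 5 and 1 reads with sh3-1 and 3, 0 and 0 in shCtr libraries. RPA1, a single-strand DNA binding protein (17:1746097-1756483), had 5, 3 and 4 reads with sh3-1 and 3, 2 and 0 in shCtr libraries. The microtubule end protein CLASP2 (3:33725851-33738425) had 5, 2 and 5 reads with sh3-1 and 4, 1 and 0 in shCtr libraries. An intronic GTF2IRD1 circle also had 12 reads in all with sh3-1.

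**Figure D4:**
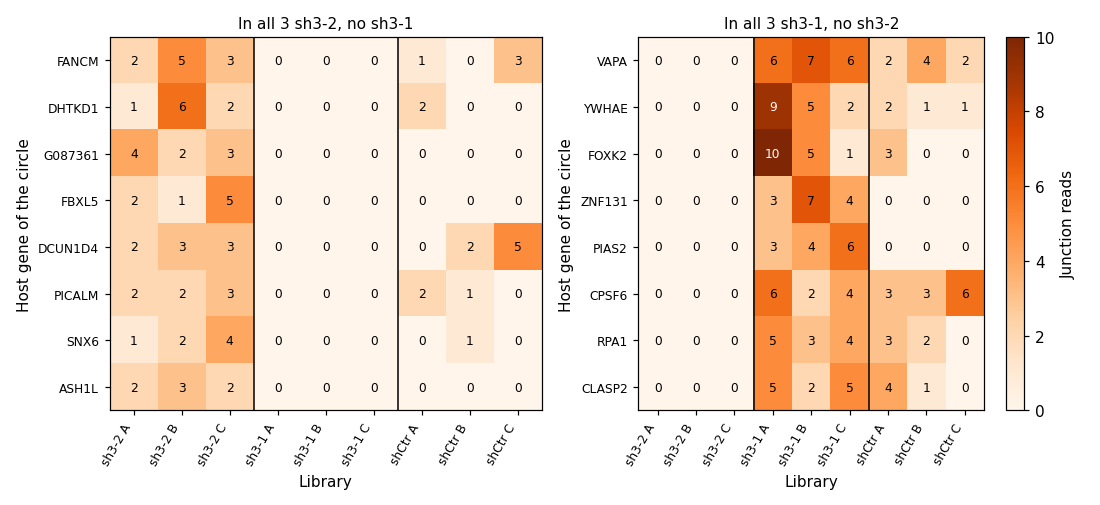
Junction reads in each of the 9 libraries for the 8 circles with the most reads among those found in all 3 sh3-2 and no sh3-1 library (left) and in all 3 sh3-1 and no sh3-2 library (right), by host gene. VAPA, YWHAE and CPSF6 have reads in each shCtr library and none with sh3-2, while ZNF131 and PIAS2 have reads with sh3-1 alone.

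Many of these circles had a host gene with reads of the other hairpin on a different circle, which is also common among all circles seen with 1 hairpin. Of the 35 sh3-2 circles, 23 (65.7%) had a host with sh3-1 reads on another circle, and 17 (48.6%) shared a back-splice end with a circle that had sh3-1 reads. Of the 54 sh3-1 circles, 39 (72.2%) had a host with sh3-2 reads on another circle and 25 (46.3%) shared an end with one. Among all circRNAs seen with one hairpin and not the other, in any number of libraries, such a host was found for 60.8% of the 2261 of sh3-2 and 55.7% of the 2666 of sh3-1, and such an end for 26.6% and 24.5%. For hosts the share of the 35 is thus near that background, while that of the 54 and both shares for ends lie above it. The 35 and the 54 had to be seen in all 3 libraries of a hairpin, unlike the background, and the excess was not tested. DCUN1D4, a cofactor of neddylation, shows the pattern. Its circle 4:52729603-52758017 (hsa_circ_0007646) had 2, 3 and 3 reads with sh3-2, 0 with sh3-1 and 0, 2 and 5 in shCtr libraries. The circle 4:52729603-52744020, with the same start and a nearer end, had 2, 0 and 3 reads with sh3-2, against 6, 11 and 3 with sh3-1 and 0 in shCtr libraries.

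DHTKD1 behaved likewise at one of its circles. The circle 10:12123471-12143180 had 1, 6 and 2 reads with sh3-2 and 0 with sh3-1, whereas 10:12123471-12162266, from the same start, had 9, 6 and 2 reads with sh3-2, against 11, 1 and 8 with sh3-1. In SMC6, a subunit of a chromosome maintenance complex, the circle 2:17860126-17927218 had 0 reads with sh3-2 and 1, 2 and 2 with sh3-1. Its neighbour 2:17846770-17927218 had 0, 6 and 4 reads with sh3-2, against 1, 4 and 0 with sh3-1. SMC6 and the examples above were chosen after their values were seen.

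Host gene lists, 17 in number, were compared by junction reads per 1000, and 15 had reads. The largest was of hosts often described as making circles, HIPK3, ARHGAP5 and MAN1A2 among them, with 51.4 ± 2.75 reads per 1000 with sh3-2 and 53.4 ± 10.8 with sh3-1 (n = 3 each). Of its 13 tested circles 8 were higher and 5 lower with sh3-2 (median log2 0.14, against 0.07 over all 40), and of its 15 tested hosts 6 were higher and 9 lower (median −0.15, against −0.01 over all 102). No member passed. The sign of the list's median thus differs between circles and hosts.

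In 2 lists the hairpins did not overlap, and both lay lower with sh3-2. Hosts of the TGF-beta and SMAD pathway, which carries growth factor signals from membrane receptors to the nucleus, had 2.84, 2.65 and 3.60 reads per 1000 with sh3-2, against 6.17, 4.45 and 4.36 with sh3-1 and 2.36, 6.12 and 5.5 in shCtr libraries. The difference was −1.96 (exact permutation p = 0.1, n = 3 each, adjusted p 0.75 over 15 lists). The receptor-activated SMAD2 gave most of the reads, with 9, 9 and 11 with sh3-2, against 15, 6 and 17 with sh3-1 (log2 0.05, SE 0.54), and its libraries overlap. The SMAD repressor SKIL had 1, 0 and 2 reads with sh3-2, against 7, 10 and 2 with sh3-1, and 10 more hosts had 1 to 6 reads in all. Over exonic reads alone the difference of the list was −0.60 and the groups overlapped, as they did without the circRNAs confined to 2 libraries of 1 hairpin (−1.45).

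Factors of small RNA processing, which also handle a hairpin RNA on its way to silencing, had 0, 0.795 and 0.960 reads per 1000 with sh3-2, against 2.59, 1.54 and 2.09 with sh3-1 and 1.64, 1.26 and 1.89 in shCtr libraries (difference −1.49, exact permutation p = 0.1, n = 3 each, adjusted p 0.75 over 15 lists). All sh3-2 libraries thus lay below all other libraries. The reads were few. The export factor XPO5 had 0, 0 and 2 reads with sh3-2, against 6, 1 and 3 with sh3-1, the nuclease DROSHA 0, 3 and 0 against 1, 3 and 3, and the silencing cofactor TNRC6B 0, 0 and 2 against 3, 3 and 0. AGO2, AGO3, AGO4 and DICER1 had 0 reads with sh3-2 and 2 to 4 with sh3-1, each in 1 library. These are circles and do not measure the proteins or their mRNAs.

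The other lists overlapped between the hairpins. Hosts of the cell cycle, centrosome and spindle had 19.3 ± 4.19 reads per 1000 with sh3-2 and 16.5 ± 1.55 with sh3-1, where NUSAP1 and ECT2 (9, 0 and 16 reads with sh3-2, against 4, 15 and 2 with sh3-1) were uneven between libraries. Actin and myosin hosts had 11.7 ± 2.82 and 10.4 ± 1.53, chromatin regulators 24.7 ± 5.01 and 23.8 ± 3.31, and receptor kinase, PI3K and MAPK hosts 8.11 ± 3.0 and 7.23 ± 1.59 with sh3-2 and sh3-1 (n = 3 each). All 5 tested hosts among the chromatin regulators, which are SETD3, KMT2C, ASXL1, BRWD1 and SFMBT2, had a negative log2 fold change (median −0.48, against 51 of 102 hosts below 0 and a median of −0.01 overall), and none passed. The list counts SETD3, now known for methylating actin, and leaves out the histone methyltransferase gene ASH1L, which lay on the other side (log2 2.23), so its direction rests on which genes it holds.

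Adhesion and matrix hosts, led by PLOD2 and the adhesion kinase PTK2, had 14.6 ± 0.519 reads per 1000 with sh3-2 and 15.6 ± 1.19 with sh3-1. Small GTPase regulators had 18.2 ± 5.12 and 18.3 ± 1.43, HECT-domain ubiquitin ligases, led by HERC4 and UBE3A, 10.2 ± 2.61 and 9.82 ± 2.37, and proteins that make or degrade circRNAs, led by the editing enzyme ADARB1, 2.91 ± 1.62 and 2.89 ± 1.17 with sh3-2 and sh3-1 (n = 3 each). Writers, erasers and readers of m6A, led by HNRNPC, had 4.0 ± 0.905 and 3.23 ± 0.712. IGF2BP targets of the general literature had 1.35 ± 0.727 and 0.653 ± 0.346, from MKI67 (0, 6 and 5 reads with sh3-2, against 0, 0 and 4 with sh3-1) and ABCG2 alone. Interferon and double-stranded RNA response hosts had 1.21 ± 2.09 and 1.28 ± 1.02, and the 3.62 reads per 1000 in sh3-2 A came with 0 in sh3-2 B and C.

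Markers of cell types added little. Of 18 squamous epithelial marker genes, 1 had a circle (TRIM29, 3 reads in sh3-1 C), and none of the 12 fibroblast and 14 immune genes did, so circles neither show nor question the labelled cell type.

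**Figure D5:**
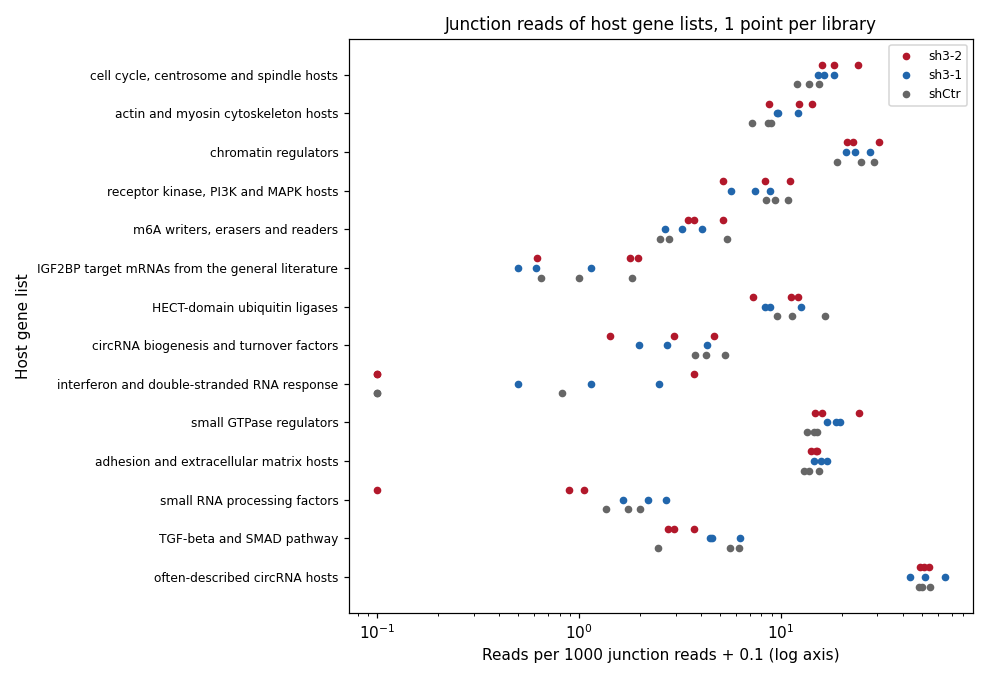
Junction reads per 1000, plus 0.1 on a log axis, of 14 host gene lists with more than 1 host, 1 point per library. The sh3-2 points lie below the sh3-1 points for small RNA processing factors (0 to 0.960, against 1.54 to 2.59 before the 0.1 is added) and for the TGF-beta and SMAD pathway, and overlap with them for the other 12.

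The m6A sheets compare sh3-2 with shCtr and so bear on one hairpin only. Among the 40 tested circRNAs, 10 carried 34 sites listed in the authors' deposited table, of which 3 were higher and 1 was lower with sh3-2 than in shCtr at an FDR under 0.05. Of all 14885 sites, 4.47% were higher and 4.53% lower in the authors' deposited table, and 34 sites are too few to set against that. The SETD3 circle, lower with sh3-2 than with sh3-1 by read counts that did not pass, held a site (14:99929823-99929915) that was 1.63-fold higher with sh3-2 than in shCtr in the authors' deposited table (FDR 0.000107). The ZBTB44 circle held one (11:130130751-130131320) that was 1.16-fold lower in the authors' deposited table (FDR 0.000627). The remaining higher sites were both on the ARHGAP5 circle 14:32559708-32563592, each 1.32-fold higher (FDR 0.00291 and 0.00855). That circle had a log2 fold change of 0.21 between the hairpins (SE 0.63). Whether sh3-1 changes these sites was not measured.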

How the data were processed

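Total RNA was freed of ribosomal RNA and sequenced strand-specifically, per the labels' protocols; no removal of linear RNA is named. Cutadapt 1.9.3, STAR 2.5.1b, edgeR 3.16.5 and hg19 stand in the submitters' processing notes without a role; for the circRNA caller, no name is given in the sources used here. Per the file headers, the authors deposited whole-number junction read counts per circRNA and library, a log2 fold change, a p-value and FDR against shCtr, a predicted sequence length in bases and, for m6A sites, a fold with its p-value and FDR. Their 24 log2 CPM columns were not used.

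The sheets list 7021 circRNAs for sh3-1 and 6648 for sh3-2, with 4955 in both. Control counts were identical in both, and circRNAs of 1 comparison had 0 control reads, so absent circRNAs were set to 0. CircRNAs without a gene name (0.088% of reads of the 6 libraries) stayed out of host sums. The members, gene lists and tests were chosen with earlier results of these data known, and the mean length, the mitochondrial share and the setting without circRNAs confined to 2 libraries of 1 hairpin were added after seeing the data.

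Counts were tested in one fit of 9 libraries with edgeR 4.0.16 in R 4.3.3 (glmQLFit with robust estimation, glmQLFTest, TMM, filterByExpr defaults, two-sided), with DESeq2 1.42.0 as an alternative, Benjamini-Hochberg adjustment over all features tested and a call at an FDR under 0.05. The SE is the log2 fold change divided by the root of F. Exact two-sided permutation tests compared library values (Python 3.11.15, scipy 1.17.1). The expected number of circRNAs at equal depth came from the hypergeometric formula. The scripts were tested on simulated data. The text names the 12 circRNAs and 8 hosts of smallest p per direction, the 8 hairpin-only circRNAs with most reads per direction, the IGF2BP3 and HECTD2 circles, the 3 most abundant circRNAs and the leading members of each list; 1 host that this rule names is not reported here. No label says whether the 3 libraries of a group come from separate cultures, so p-values cover only their spread, possibly technical. Libraries held 3775 to 5846 junction reads, and floors hold counting error alone, as PCR duplicates are not marked.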

Additional observations from a re-analysis of the deposited data

Results flagged for a closer look

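For the host gene ASH1L each hairpin lay on its own side of every shCtr library. Its circles had 2.12 ± 0.237 reads per 1000 with sh3-2, 0.419 ± 0.256 with sh3-1 and 0.941 ± 0.376 in shCtr libraries (n = 3 each). Only the sh3-2 libraries held enough ASH1L reads for the host to be tested, which selects for a high sh3-2 value. The log2 fold change of sh3-2 over sh3-1 was 2.23 (SE 0.82) with an edgeR adjusted p of 0.498 over 102 hosts. Per 1000 reads left without the circRNAs confined to 2 libraries of 1 hairpin, sh3-1 (0.496 ± 0.344) overlapped with shCtr. The fold change is also the difference between the hairpins' effects against their shared shCtr libraries, so that difference did not pass. Over the other settings in which ASH1L was tested it lay between 1.84 and 2.85, with adjusted p-values between 0.357 and 0.68.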

How the results depend on the processing

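CircRNAs called, 0 in the fit described, numbered 1 in the fit of the 6 hairpin libraries (SPECC1), 0 to 1 when each library was left out (KIAA0368 without sh3-2 A) and 0 in the other alternatives; hosts called numbered 1 with 6 libraries (SPECC1) and 0 otherwise. Without a filter, 39 of 8714 circRNAs were higher and 26 lower before adjustment, and with at least 10 reads 10 and 23 of 419. Deviations of same-lettered libraries (A, B and C) correlated at 0.293, -0.074 and 0.407 over circRNAs and at -0.078, -0.144 and 0.121 over hosts. Pairs of unlike letters ranged between -0.424 and 0.085 over circRNAs and between -0.189 and 0.234 over hosts. For A and C the same letter thus lay above every unlike pair over circRNAs, which did not hold over hosts. A replicate block gave 0 calls among circRNAs (smallest edgeR adjusted p 0.107) and 0 among hosts (0.573). DESeq2's Wald test moved the host median by 0.11. Circles of sh3-2 alone numbered 5 with 2 reads asked for per library, 427 with 2 of 3 libraries and 45 to 311 when each library was left out. Those of sh3-1 alone numbered 14, 605 and 69 to 506. The intronic difference turned to -0.0002138 points over detected circRNAs and -0.01611 over circRNAs of both comparisons, and ranged between -0.3014 and 1.005 when each library was left out. The equal-depth difference was 28.22 without circRNAs confined to 2 libraries of 1 hairpin and ranged between -103.6 and 20.1. Lists that did not overlap numbered 1 over exonic reads and 3 to 4 with a library left out. List differences turned over exonic reads to 1.175 (often-described hosts), -1.995 (receptor kinase) and 0.3557 (interferon), and to -0.1852 (receptor kinase) without the confined circRNAs. With a library left out they ranged between -6.95 and 3.775 (often-described hosts), -0.6602 and 1.815 (HECT), -0.8093 and 0.8077 (biogenesis), -0.5806 and 2.421 (receptor kinase), -1.911 and 2.755 (chromatin), -3.055 and 1.631 (small GTPase) and -1.28 and 0.5293 (interferon), and IGF2BP3 circles between -0.001129 and 0.7936. Log2 fold changes of circles then ranged between -0.32 and 1.14 (LINC01004), -0.57 and 0.81 (NFATC3), -0.12 and 0.49 (ZKSCAN1), -0.82 and 0.86 (MAN1A2), -0.15 and 1.15 (RBM33) and -0.89 and 0.12 (second MGA circle). The cause was not tested. The 16 hosts of smallest p kept their sign in all 238 alternative values. They were chosen by p from the same libraries that the alternatives refit, so this agreement is little evidence of its own. The sense overlapping and exonic shares kept their sign in all of their alternatives. The exonic shares of the hairpins overlapped over detected circRNAs (-2.073) and over circRNAs of both comparisons (-1.637).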
